A study of Equus caballus with 4 samples.

Results

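The dystrophin and sarcoglycan complex was examined through 8 genes: SGCA, SGCB, SGCD, SGCE, DMD, DAG1, DTNA and UTRN. They were taken as every gene probe on the array annotated with exactly 1 of these symbols, which gave 10 probes, and they were 8 of 24998 gene names on the array. Transcripts were measured in horse satellite cells, the precursors that repair muscle by fusing into fibres, isolated from m. semitendinosus and harvested on day 3 of differentiation. Treated cultures received 0.125 µM gamma-oryzanol (GO), a rice bran extract made of ferulic acid esters of sterols, during 24 h. The oxidant hydrogen peroxide (H2O2) was present at 3 mM in the final 1 h. Control cultures received no GO. The labels do not say whether these controls were exposed to H2O2, while the study's methods describe them as exposed, with the DMSO vehicle in the control medium. Muscle came from young stallions, and the methods state that the primary line with the best viability and fusion was taken forward, so the cultures probably share a line and p-values then measure the spread between cultures of it.

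Treated RNA was labelled red (Cy5) and control RNA green (Cy3) on each of 4 Agilent horse arrays, all on 1 slide. The dyes were not swapped, so dye and treatment cannot be told apart in any value given here. Between 54.9% and 61.4% of gene spots were well above background per channel and array, and 0 gene spots were saturated. The number of arrays limits the precision. RNA came from whole cultures, in which a change in the share of a cell type and a change in RNA per cell cannot be told apart.

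Dystrophin, the product of DMD, is a long rod-shaped protein that links the actin cytoskeleton to the muscle membrane. There it binds dystroglycan, which DAG1 encodes and which reaches laminin in the basement membrane. The products of SGCA, SGCB and SGCD belong to the sarcoglycans, a membrane subcomplex that steadies this link during contraction, and SGCE is a more widely expressed relative of SGCA. DTNA encodes alpha-dystrobrevin, a cytoplasmic partner of dystrophin, and UTRN encodes utrophin, the autosomal relative of dystrophin. Loss of dystrophin or of the products of SGCA, SGCB or SGCD causes muscular dystrophy.

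Positions follow the array's annotation, which names the horse build EquCab1. Both SGCD probes lay side by side on the minus strand, A_69_P061682 at chr14:21542073-21542132 and A_69_P061681 at chr14:21542013-21542072. The SGCA probe (A_69_P033831) covered chr11:24679139-24680201 and the SGCB probe (A_69_P083806) chr3:73266382-73269539. The UTRN probe (A_69_P008006) covered chr31:21189843-21190284. Each of these 3 probes has 60 bases spread over a span of 1063, 3158 and 442 bases respectively, so each crosses an intron of its transcript. The SGCE probe (A_69_P078711) lay at chr4:37693834-37693893, the DAG1 probe (A_69_P056011) at chr16:37643080-37643139 and the DTNA probe (A_69_P066466) at chr8:48604965-48605024. The DMD probes were placed on unassigned sequence, A_69_P090532 at chrUn:166967057-166967116 and A_69_P090531 at chrUn:166967127-166967186. Exon, intron and untranslated region were not assigned for the other 7 probes.

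The sequence of the brighter SGCD probe differed in kind from those of the partner probes. A stretch of 30 bases is shown for both SGCD probes and for 3 partners, because the probes are grouped by this feature below. Capitals mark the longest stretch in which T and G alternate.
SGCD probe 1, bases 30 to 59: acctTGTGTGTGTGTGTGTGTGTGTGggcg
SGCD probe 2, bases 15 to 44: gagtatgtttgcGTGTGTGagtggatataa
SGCA, bases 1 to 30: ttgactggtgcaaTGTGTccctggtggata
SGCB, bases 15 to 44: tcctaaatggaacTGTGatggttaacacaa
DMD probe 1, bases 6 to 35: aaacggtaactatgGTGaccacaagggaac
The alternating run was 22 bases in SGCD probe 1, 7 bases in SGCD probe 2 and 5 bases in the SGCA probe. In the other 7 member probes it was 2 to 4 bases.

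SGCD and SGCA were higher in the treated than in the control cultures, and no member that could be tested was significantly lower. Of the 10 member probes, 7 passed the filter on signal, which asks for a probe well above background on all 4 arrays in red or in green. They stood for 6 genes, and DTNA and UTRN had no probe that passed. In limma's test of the mean log2 ratio against 0, with Benjamini-Hochberg adjustment over the 24230 probes kept, 3 of the 7 member probes were past 0.05 and higher, and 0 were lower. Among all probes kept, 17.1% were past the threshold in either direction and 9.49% were past it and higher. Since 2 of the 3 member probes past the threshold are the neighbouring SGCD probes, they stand for 2 genes. The median log2 ratio was 0.13 over the 7 member probes and 0.00 over all probes kept.

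**Figure D1:**
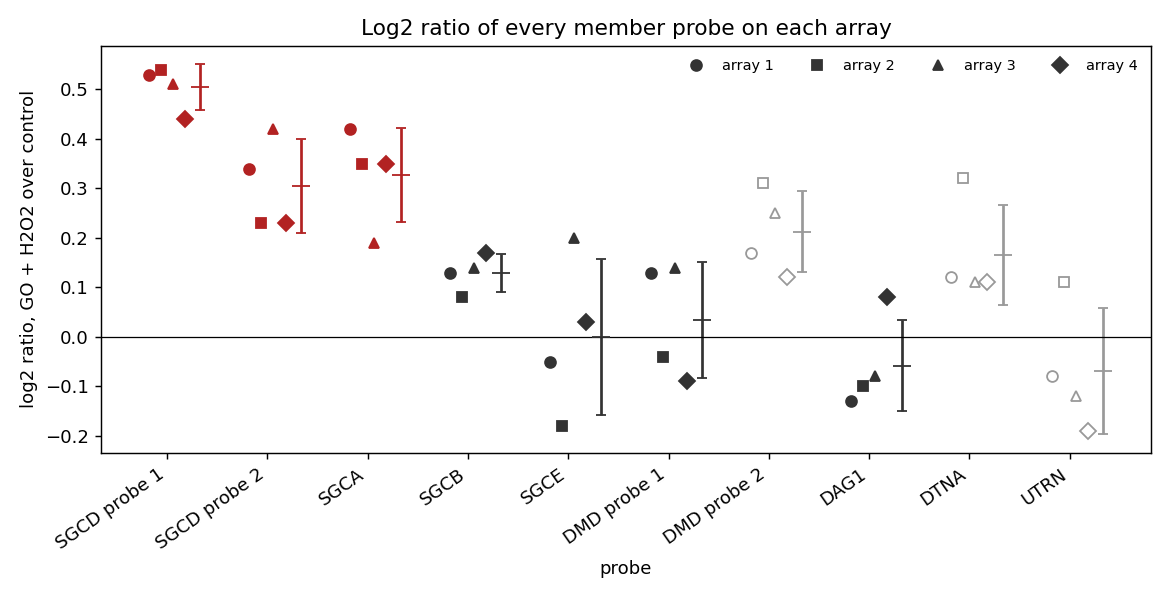
Log2 ratio (GO + H2O2 over control, y axis) of the 10 member probes (x axis) on each of the 4 arrays, with the mean and SD of the arrays at the right of each group of points. Red marks probes past the threshold, black those tested and not past it, and open grey those that failed the signal filter; all points of both SGCD probes and SGCA lie at 0.19 or above.

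SGCD encodes delta-sarcoglycan, a transmembrane subunit that the sarcoglycan subcomplex needs for its assembly. The study listed SGCD among its differing genes and miRNA targets from these same arrays, so its direction here is not independent evidence. On SGCD probe 1, the brighter, the normalised red signal (log2) was 11.46, 11.66, 11.44 and 11.55 on arrays 1 to 4, and the green signal was 10.93, 11.12, 10.93 and 11.11. The red signals lay above all of the green ones, and the groups did not overlap. The log2 ratio was 0.53, 0.54, 0.51 and 0.44, a mean of 0.50 ± 0.05 (SD, n = 4 arrays), or 1.42-fold (limma, adjusted p = 0.00632).

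SGCD probe 2 gave a smaller ratio than its neighbour on each array. Its red signal (log2) was 9.36, 9.28, 9.38 and 9.19, and its green signal was 9.02, 9.06, 8.96 and 8.95, again without overlap. The log2 ratio was 0.34, 0.23, 0.42 and 0.23, a mean of 0.31 ± 0.09 (SD, n = 4), or 1.24-fold (limma, adjusted p = 0.0184). Probe 1 minus probe 2 was 0.18, 0.32, 0.09 and 0.21 on the log2 scale on arrays 1 to 4, a mean of 0.20 ± 0.09 (SD). Both probes are annotated to the same transcript.

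Probes of other genes had higher ratios the longer their alternating run of T and G, the feature that SGCD probe 1 carries. Of the probes kept that belong to no member, the 23342 with a longest run of 1 to 5 bases had a median log2 ratio of 0.00, and 9.06% of them were past the threshold and higher. The median was 0.06 for the 709 probes with runs of 6 to 7 bases and 0.15 for the 96 with runs of 8 to 11 bases. It was 0.34 for the 24 probes with runs of 12 to 15 bases, of which 18 were past the threshold and higher. For the 8 probes with runs of 16 bases or more it was 0.56, with a range of 0.27 to 0.61, and 7 of the 8 were past the threshold and higher. In these same 8 probes, 7 had a mean log2 ratio at or above that of SGCD probe 1, and 0 were past the threshold and lower. Alternating runs of A and C showed no such order, with medians of 0.01 at 6 to 7 bases, -0.05 at 8 to 11 bases (52 probes) and 0.09 at 12 bases or more (10 probes, of which 5 were past the threshold and higher).

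**Figure D2:**
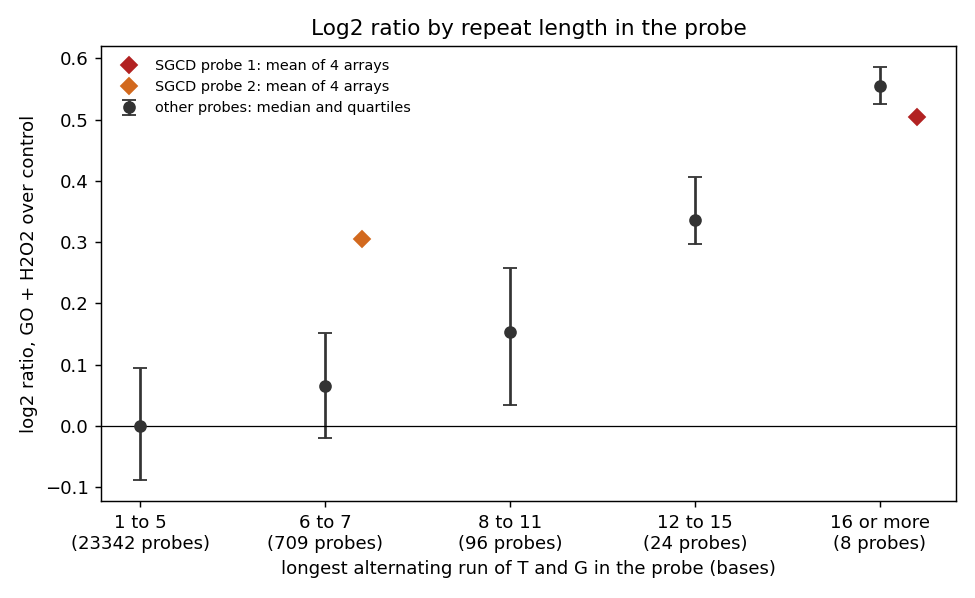
Median log2 ratio (GO + H2O2 over control, y axis) of the probes kept that belong to no member, grouped by their longest alternating run of T and G in bases (x axis, number of probes in brackets), with quartiles as bars. The medians climb from 0.00 to 0.56, and the SGCD probes are drawn as diamonds at their mean of 4 arrays, 0.50 and 0.31.

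SGCD probe 2 has only a short run but many T and G neighbours. It holds 19 steps from T to G or G to T, against 22 in probe 1 and 16 in the SGCA probe, while the other member probes hold 5 to 8. The 35 other probes with at least 22 such steps had a median log2 ratio of 0.33 (quartiles 0.29 and 0.45), beside 0.50 for SGCD probe 1. The 122 other probes with at least 19 such steps had a median log2 ratio of 0.23 (quartiles 0.09 and 0.39), beside 0.31 for SGCD probe 2. The 555 other probes with at least 16 steps had a median of 0.14 (quartiles 0.03 and 0.24), beside 0.33 for SGCA. These step groups are nested, so the larger ones also hold the probes with more steps. Grouped by longest run instead, SGCD probe 2 lay above the upper quartile of 0.15 for runs of 6 to 7 bases. SGCA likewise lay above the upper quartile of 0.09 for runs of 1 to 5 bases. The groups of 24 and 8 probes with the longest runs are small, these groupings were chosen after the values were seen, and the part of the probe sequence in the SGCD and SGCA ratios was not tested.

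SGCA encodes alpha-sarcoglycan, the subunit most restricted to striated muscle and the one lost in a common form of limb-girdle muscular dystrophy. Its red signal (log2) was 8.66, 8.66, 8.49 and 8.51, and its green signal was 8.24, 8.30, 8.30 and 8.16, so the groups did not overlap. The log2 ratio was 0.42, 0.35, 0.19 and 0.35, lowest on array 3, with a mean of 0.33 ± 0.10 (SD, n = 4), or 1.25-fold (limma, adjusted p = 0.0167).

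SGCB encodes beta-sarcoglycan, which pairs with delta-sarcoglycan in the core of the subcomplex. Its log2 ratio was small but above 0 on each array, at 0.13, 0.08, 0.14 and 0.17, with a mean of 0.13 ± 0.04 (SD, n = 4), or 1.09-fold (limma, adjusted p = 0.0626). This missed the threshold, and passed it without background correction (adjusted p = 0.0490). The red signals (log2) of 9.21, 9.43, 9.14 and 9.23 overlapped the green signals of 9.08, 9.35, 9.01 and 9.06. Array 2 was the highest in both channels.

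SGCE encodes epsilon-sarcoglycan, which takes the place of alpha-sarcoglycan in many other tissues. Its log2 ratio was -0.05, -0.18, 0.20 and 0.03 on arrays 1 to 4, on both sides of 0, with a mean of 0.00 ± 0.16 (SD, n = 4; limma, adjusted p = 0.999). The red signals (log2) of 10.65, 10.56, 10.80 and 10.65 overlapped the green signals of 10.71, 10.74, 10.60 and 10.62.

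For DAG1, the dystroglycan gene, the log2 ratio was -0.13, -0.10, -0.08 and 0.08, with a mean of -0.06 ± 0.09 (SD, n = 4; limma, adjusted p = 0.406). Array 4 stood on the other side of 0 from the remaining arrays. The red signals (log2) of 8.89, 8.86, 8.88 and 8.91 lay within the span of the green signals, 9.02, 8.96, 8.96 and 8.83.

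DMD was dim on both of its probes. On DMD probe 1 the red signal (log2) was 6.99, 6.90, 7.01 and 6.97 and the green signal was 6.86, 6.94, 6.87 and 7.06, all well above background. The log2 ratio was 0.13, -0.04, 0.14 and -0.09, on both sides of 0, with a mean of 0.03 ± 0.12 (SD, n = 4; limma, adjusted p = 0.671). DMD probe 2 was well above background in red on 2 of 4 arrays and in green on 0 of 4, so it failed the filter and was not tested. Its red signal (log2) was 6.67, 6.69, 6.69 and 6.81 and its green signal was 6.50, 6.38, 6.44 and 6.68. These groups overlapped, and the log2 ratio was 0.17, 0.31, 0.25 and 0.12. Before background correction and normalisation, red was under green on arrays 2 to 4 (75.6, 77.7 and 92.6 against 89.0, 89.8 and 115). On array 1 the raw intensities were 85.8 in red and 85.5 in green. Since red was well above background on only 2 arrays, no fold is given, and these values are open to dye bias.

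The dystrophin relatives were near or under the limit of measurement. The DTNA probe was well above background in neither channel, on 0 of 4 arrays in each, so no fold is given. Its red signal (log2) was 6.50, 6.59, 6.49 and 6.52 and its green signal was 6.37, 6.27, 6.38 and 6.41. The DTNA log2 ratio was 0.12, 0.32, 0.11 and 0.11, above 0 on each array though at background, and untested. The UTRN probe was well above background in red on 3 of 4 arrays and in green on 1 of 4. Its red signal (log2) was 6.70, 6.90, 6.75 and 6.70 and its green signal was 6.78, 6.79, 6.86 and 6.89. The groups overlapped, and the UTRN log2 ratio was -0.08, 0.11, -0.12 and -0.19, untested.

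**Figure D3:**
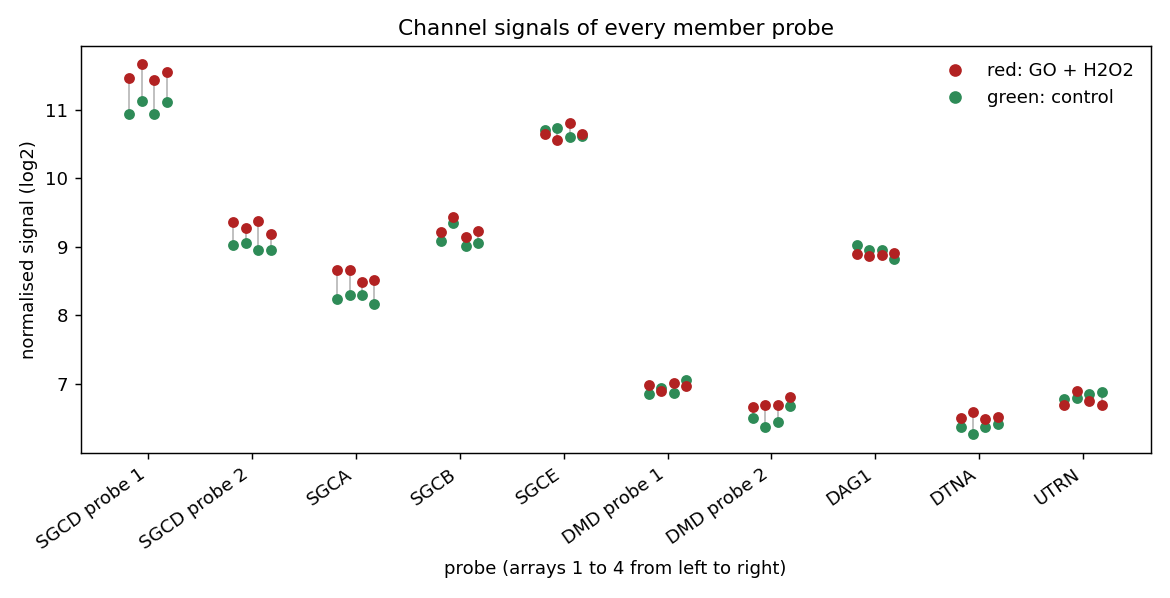
Normalised signal (log2, y axis) of the 10 member probes (x axis) in the red channel (GO + H2O2) and the green channel (control), with a line joining both channels of an array. Red lies above green on each array for SGCD, SGCA, SGCB, DMD probe 2 and DTNA, of which DMD probe 2 and DTNA failed the signal filter. Both channels cross for SGCE, DMD probe 1, DAG1 and UTRN, and levels of different probes are not comparable.

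Whether SGCD moved with its partners was examined by subtracting each partner's log2 ratio from that of SGCD on the same array, with 1 probe a gene, the brightest that passed the filter. On these values SGCD probe 1 exceeded all 5 partners with a probe that passed, on each of the 4 arrays. The difference was smallest for SGCA, at 0.11, 0.19, 0.32 and 0.09 on the log2 scale, with a mean of 0.18 ± 0.10 (SD, n = 4). It was largest for DAG1, at 0.66, 0.64, 0.59 and 0.36, with a mean of 0.56 ± 0.14. The mean difference was 0.38 ± 0.08 for SGCB, 0.50 ± 0.18 for SGCE and 0.47 ± 0.10 for DMD. In the two-sided exact sign-flip permutation test each of these 5 comparisons gave p = 0.125, the smallest that 4 arrays allow, and p = 0.125 after Benjamini-Hochberg adjustment over the 5 partners, so this design could not pass the threshold. Against the median of the partners, SGCD was higher by 0.40, 0.58, 0.37 and 0.36, a mean of 0.43 ± 0.10 (SD). SGCD probe 1 carries the alternating run of 22 bases, and the probes of the 5 partners carry runs of 2 to 5. Probes that belong to no member had a median log2 ratio of 0.56 at runs of 16 bases or more. At runs of 1 to 5 bases their median was 0.00. The part of the probe sequence and of the unswapped dyes in these differences was not tested.

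The comparison with SGCA depended on the SGCD probe and on the processing. With the processed signals of Agilent, SGCD probe 1 minus SGCA was 0.092 on average and above 0 on 3 of 4 arrays, and with median centring it was 0.18 and also above 0 on 3 of 4. Median centring likewise left SGCD minus DMD above 0 on 3 of 4 arrays, at 0.48 on average. With probe 2, SGCD minus SGCA was -0.07, -0.13, 0.23 and -0.12, higher on 1 of 4 arrays, with a mean of -0.02 ± 0.17 (SD; exact sign-flip permutation test, p = 0.875). With the mean of both SGCD probes it was 0.02, 0.03, 0.27 and -0.01, with a mean of 0.08 ± 0.13. Against SGCB, SGCE, DMD and DAG1, SGCD probe 2 was higher on each array, with mean differences of 0.18 ± 0.10, 0.31 ± 0.11, 0.27 ± 0.04 and 0.36 ± 0.16 (exact p = 0.125 each). The difference from the partner median was then 0.23 ± 0.06.

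**Figure D4:**
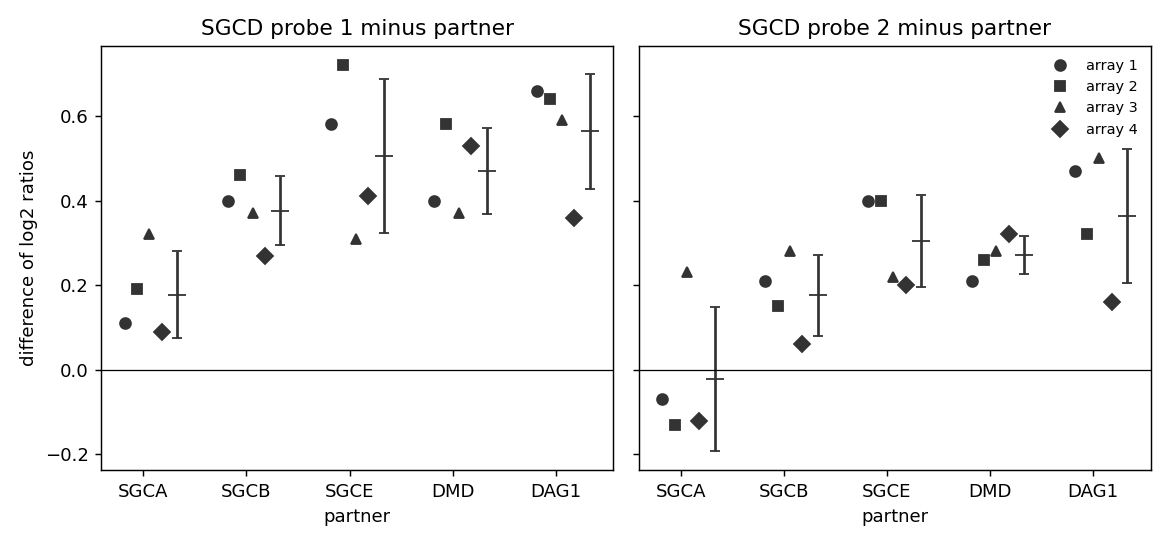
SGCD minus partner difference of log2 ratios (y axis) for the 5 partners (x axis) on each of the 4 arrays, with SGCD probe 1 in the left panel and probe 2 in the right panel, and the mean and SD beside the points. With probe 1 all points lie above 0, and with probe 2 the SGCA points lie below 0 on 3 arrays.

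The 3 non-member genes whose ratios were most like those of SGCD probe 1 over the 4 arrays were MGP, REEP3 and GTPBP1. Likeness was the root mean square difference of the log2 ratios, by the brightest probe of each of 8403 named genes. It was 0.05 for MGP, with ratios of 0.51, 0.60, 0.51 and 0.36. For REEP3 it was 0.06, with ratios of 0.56, 0.55, 0.56 and 0.55, and for GTPBP1 it was 0.07, with ratios of 0.59, 0.56, 0.51 and 0.55. The longest alternating run of T and G was 19 bases in the REEP3 probe, 9 in the GTPBP1 probe and 5 in the MGP probe.

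Calls on SGCD and SGCA were lost when some arrays were left out. All 3 of their probes also passed without array 2, where 3899 of all probes kept were past the threshold. Without array 1 the adjusted p was 0.0761 for SGCD probe 1, 0.0869 for SGCD probe 2 and 0.0820 for SGCA (limma), and 2 of all probes kept were past the threshold. Without array 4 these were 0.0525, 0.0765 and 0.0810, and 0 of all probes were past it. Without array 3, SGCD probe 1 still passed (adjusted p = 0.0446), while SGCD probe 2 had 0.0605 and SGCA 0.0571, and 38 of all probes were past it. With an array left out the log2 ratios were 0.49 to 0.53 for SGCD probe 1, 0.27 to 0.33 for SGCD probe 2 and 0.30 to 0.37 for SGCA. With median centring in place of loess, none of the 3 probes passed (adjusted p = 0.551, 0.729 and 0.651 for SGCD probe 1, SGCD probe 2 and SGCA).

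The wider complex and its pathway were described by their counts. A total of 54 genes were listed in 4 groups, and 28 had a probe that passed the filter. Of these, 4 were past the threshold and higher and 1 was past it and lower, by the brightest probe of each gene. Over all genes taken that way, 9.93% were higher and 7.16% were lower, so that the 5 of 28 genes were close to the share over all genes. With array 1, 3 or 4 left out, 0 of these list genes were past the threshold. The same fits left 2, 38 and 0 of all probes past it.

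Of 10 other subunits of the complex, 3 were tested and 0 changed in limma's test, with 0 at an unadjusted p under 0.05 too. SSPN, the sarcospan gene, had a mean log2 ratio of 0.09 ± 0.21 (SD, n = 4; limma, adjusted p = 0.437). The syntrophin genes SNTB1 and SNTB2, whose proteins are adaptors that bind dystrophin and dystrobrevin, had means of 0.02 ± 0.11 and 0.09 ± 0.16 (adjusted p = 0.835 and 0.334). Another 5 subunits, SGCZ, DTNB, SNTG1, SNTG2 and DRP2, failed the filter, and 2 had no probe under their symbol. The group's median log2 ratio was 0.09, against 0.01 over all genes.

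Among the ligands of dystroglycan and their laminin partners, 1 of 6 genes tested was higher and 0 were lower, with a median log2 ratio of 0.17. LAMA2, the laminin alpha2 chain of the muscle basement membrane, had ratios of 0.28, 0.21, 0.49 and 0.20, with a mean of 0.29 ± 0.14 (SD, n = 4; limma, adjusted p = 0.0262). Its other kept probe, much dimmer, was not past the threshold. LAMA4, LAMB2, HSPG2, BGN and NID1 were not past it by their brightest probe, although 2 of the 3 kept probes of BGN, the biglycan gene, were.

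Of the enzymes that build the laminin-binding sugar chains of dystroglycan, 0 of 11 genes tested changed in limma's test, among them POMT1, POMT2 and LARGE, with 1 at an unadjusted p under 0.05 and a median log2 ratio of -0.02.

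The membrane and cytoskeleton partners had 3 of 8 genes tested higher and 1 lower, against 9.93% higher and 7.16% lower over all genes. The group is small, and its median log2 ratio was 0.02. FLNC, filamin C, an actin crosslinker that binds sarcoglycans, had ratios of 0.45, 0.37, 0.50 and 0.32, with a mean of 0.41 ± 0.08 (SD, n = 4; limma, adjusted p = 0.0125). CAV3, the muscle caveolin, had 0.53, 0.19, 0.38 and 0.31, with a mean of 0.35 ± 0.14 (adjusted p = 0.0198). DYSF, dysferlin, which acts in membrane repair, had 0.44, 0.26, 0.12 and 0.23, with a mean of 0.26 ± 0.13 (adjusted p = 0.0317). SYNC, the intermediate filament protein syncoilin, which binds alpha-dystrobrevin, was lower, at -0.25, -0.14, -0.16 and -0.15, with a mean of -0.18 ± 0.05 (adjusted p = 0.0348). ITGB1, the beta1 integrin gene, was at -0.58, -0.62 and -0.61 on arrays 1 to 3 and at 0.09 on array 4, and its brightest probe was not past the threshold (adjusted p = 0.0553), while 4 of its 5 kept probes were.

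**Figure D5:**
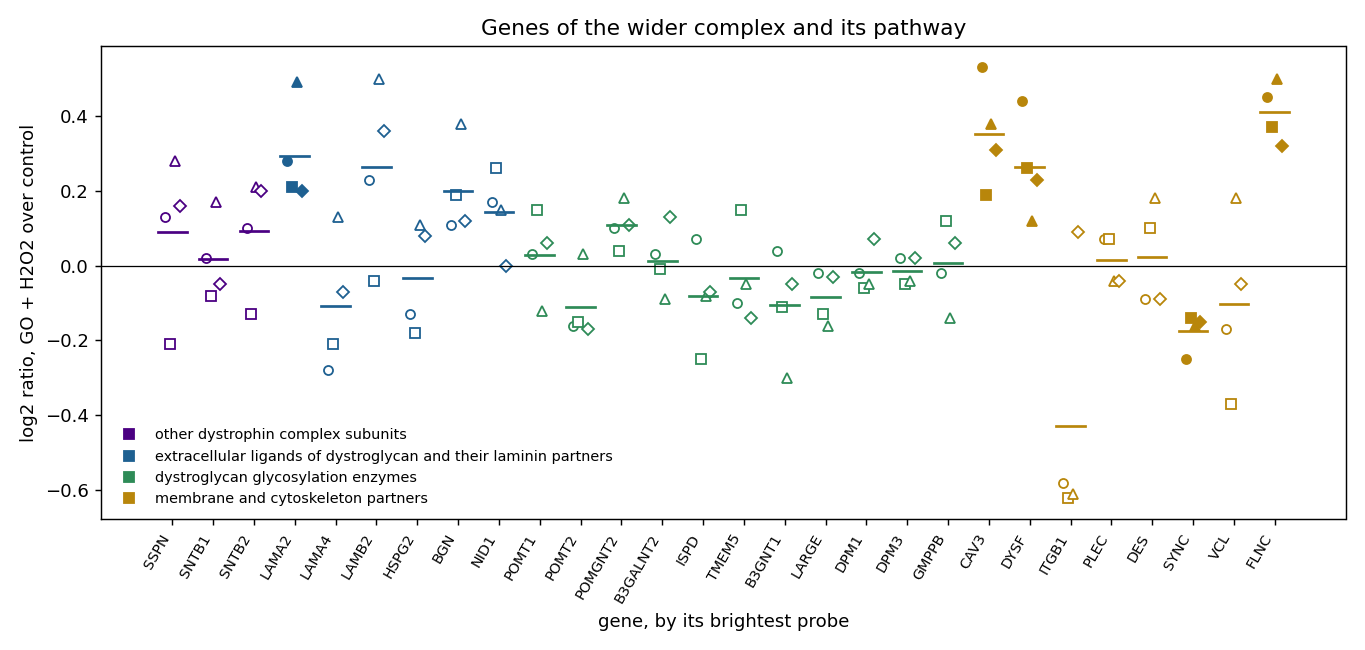
Log2 ratio (GO + H2O2 over control, y axis) of the 28 genes tested in the 4 groups of the wider complex (x axis), on each of the 4 arrays (circle, square, triangle and diamond for arrays 1 to 4), with a bar at the mean. Filled points mark the 5 genes past the threshold: LAMA2, CAV3, DYSF and FLNC above 0 and SYNC below 0.

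Some markers of muscle differentiation were higher, as SGCA and SGCD were. Of 13 muscle markers, 9 were tested, 4 were higher (MYOG, MYH3, MYH8 and CKM), 0 were lower and 5 were not past the threshold (MYF5, MYOD1, ACTA1, CHRNA1 and DES), against 9.93% higher over all genes. Their median log2 ratio was 0.23, and that of the fibroblast markers was 0.20. The mean level of the muscle markers per array was 11.81 to 11.96 in red and 11.59 to 11.69 in green (log2). MYOG, the transcription factor myogenin, had a mean log2 ratio of 0.33 ± 0.13 (SD, n = 4; limma, adjusted p = 0.0212). Of 8 fibroblast markers, 6 were tested: THY1 was higher at 0.28 ± 0.14, LUM was lower at -0.43 ± 0.10, and the other 4 were not past the threshold, with mean levels of 13.3 to 13.5 in red and 13.3 to 13.4 in green. Markers of endothelial cells (5 with a probe), adipocytes (4) and glia (4) were all under the filter. Of the leukocyte markers, CD14 (lower, -0.17 ± 0.06) and CD68 passed the filter and CSF1R and ITGAM did not. Of the smooth muscle and pericyte markers, ACTA2 and PDGFRB passed it, 0 of them past the threshold, and MYH11 and RGS5 did not. The part of these markers in the SGCD and SGCA ratios was not tested.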

How the data were processed

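Both channels of 4 arrays were analysed as 1 group of 4 replicates. The authors extracted spots with Agilent Feature Extraction 10.10.1.1, and the deposited files hold mean, background and processed intensities, background marks and the log10 ratio of processed red over green. The authors' series matrix holds these same log10 ratios (largest difference 0). Mean intensities were corrected with normexp (offset 50) and normalised within arrays by loess with control spots at weight 0. Outlier spots (7 to 16 per array) were left out and spots of a probe averaged. Of 43603 gene probes, 24230 (55.6%) were kept. Channel signals combine the log2 ratio with the mean log2 signal of both channels, quantile normalised between arrays. Log2 ratios were tested against 0 with limma 3.58.1 (R 4.3.3), two-sided. The test was checked on simulated ratios drawn independently for each array, which held no dye, sequence or array-wide effect. That check therefore does not bear on such effects in the data. No value of the authors' own comparisons was used. In the exact test all signs of the 4 array differences were flipped.

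The rule for named genes took every member probe, of each group at most 4 genes past the threshold with the smallest p, and the 3 genes most like SGCD. Genes named beyond it were chosen after their values were seen. The members and lists were chosen with earlier results of these data known. Older and newer symbols of a gene were counted once, and some genes are not reported here. Alternatives were another background correction, normalisation, filter, variance model or probe choice, the authors' processed values, the methods' t-test, channels fitted as unpaired, and each array left out. The dimmer SGCD probe was an alternative chosen after seeing the data.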

Additional observations from a re-analysis of the deposited data

How the results depend on the processing

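The 3 member probes past the threshold were also past it in 9 of the 11 alternatives that kept all arrays. In those 9, between 594 (unpaired fit) and 5298 (no filter) of all probes tested were past it too. A further probe passed in 2 of these, the SGCB probe without background correction and DMD probe 2 without the filter. The 9 alternatives are not all separate checks. The series matrix values and the processed signals of Agilent are the same ratios. Another filter, another variance model and the unpaired fit reuse the ratios of the main analysis. Median centring in place of loess gave 0 of the members and 0 of the genes in the 4 lists, where 12 of all probes were past it. The methods' t-test with Benjamini-Hochberg adjustment likewise gave 0 and 0, where 5 of all probes were past it. With so few calls over all probes, these counts of 0 are not particular to the members. At an unadjusted p under 0.05 these settings gave 3 and 4 member probes. No share over all probes was taken at that level, so these counts cannot be read as a result about the members. Without array 2, 3 member probes and 6 list genes were past the threshold, beside 3899 of all probes. Without array 1, 3 or 4, 0 list genes were past it. The member probes past it were then 0, 1 and 0, beside 2, 38 and 0 of all probes. Fitting the channels without the array pairing (no replicate block) left 3 member probes past the threshold and 2 list genes, against 5 with the pairing. Over all probes it left 594 past the threshold, against 4137 with the pairing. The signs of all 3 probes past the threshold stayed positive, with log2 ratios of 0.49 to 0.53 for SGCD probe 1, 0.27 to 0.37 for SGCD probe 2 and 0.30 to 0.44 for SGCA. The causes were not tested.

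Ratios near 0 changed sign. SGCE was at -0.019 with the series matrix values and with the processed signals of Agilent, at -0.021 with median centring, at -0.0045 with a normexp offset of 0, and at -0.067 to 0.059 with an array left out. DMD probe 1 was at -0.00093 to 0.076 with an array left out. SGCD minus SGCA was -0.022 with the dimmer SGCD probe and SGCD minus the partner median was 0.23. All remaining differences kept their direction. The dim members DTNA and UTRN were limited by signal over background.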
